A study of Mus musculus with 12 samples.

Results

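The collagen chain genes are those whose symbol is Col, a number, the letter a and a number, such as Col4a1. The array measured 44 of them among 19938 genes. They came from 46 probesets, since Col6a5 and Col6a6 had more than 1 each, and for these genes the probeset with the higher mean over all arrays was used. By class, 11 of the 44 encode fibrillar collagens (types I, II, III, V, XI, XXIV and XXVII), 9 encode FACIT collagens, which sit on the surface of fibrils, 6 encode type IV and 6 type VI chains. A further 4 are transmembrane, 3 are short-chain network collagens (types VIII and X), 2 are multiplexins (types XV and XVIII), 1 is the anchoring fibril collagen Col7a1 and 2 fall outside these classes.

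The arrays were made from sorted mammary epithelial cells of female mice, aged 10 to 14 weeks, in 4 groups of 3 arrays. All mice carried MMTV::Cre, a recombinase driven by the mouse mammary tumor virus promoter, and the mT/mG reporter, which turns cells from red to green fluorescence once Cre has acted. Wnt4-deleted mice were Wnt4fl/fl and so lost Wnt4 in the cells where Cre acted, whereas control mice, called WT here, were Wnt4wt/wt. After lineage depletion, whose markers the labels do not give, green cells were sorted into a CD24 low fraction, which the labels call myoepithelial, and a CD24 high fraction, which they call luminal. Each array goes by its title number: those of WT CD24 low cells are 1, 9 and 13, Wnt4-deleted CD24 low cells are 3, 11 and 15, WT CD24 high cells are 2, 10 and 14, and Wnt4-deleted CD24 high cells are 4, 12 and 16. The numbers form 3 sets of 4 (1 to 4, 9 to 12 and 13 to 16) with 1 array of each group, and no label says that a set is an experiment. The design text states 3 independent experiments, but no label ties an array to one. The labels do not tell which arrays came from separate mice. The p-values therefore reflect array-to-array spread, which may be technical. The design text speaks of glands and the treatment notes of grafts.

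Collagens are secreted proteins whose alpha chains coil around each other into a helix and assemble outside the cell. In the mammary gland, milk ducts are built of an inner layer of luminal cells and an outer layer of contractile myoepithelial cells, and the outer layer rests on a basement membrane whose scaffold is a type IV collagen network. The stroma around it holds fibrils of types I, III and V, made mainly by fibroblasts, with type VI filaments and FACIT collagens bound to them.

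Wnt4 itself measured 7.42, 7.92 and 7.62 in WT and 6.11, 6.46 and 6.78 in Wnt4-deleted CD24 high cells (arrays in title order), which did not overlap, a change of -1.20 ± 0.19 (SE, limma adjusted p = 0.416). In CD24 low cells it was 6.45 to 6.63 in WT and 6.20 to 6.66 in Wnt4-deleted cells. The part of the gene that the probeset covers was not examined. The fractions carried the markers of their labels. All 10 myoepithelial markers, among them Krt14, Acta2 and Trp63, were lower in CD24 high cells in both genotypes, and all 10 luminal markers, among them Krt8, Krt18 and Epcam, were higher (limma, adjusted p under 0.05). Genes of other cell types were also present in CD24 low cells, unevenly between arrays. The mean log2 value of 14 fibroblast markers was 8.45 on array 9 and 8.14 on array 11, 7.15 on array 15 and 6.12 to 6.44 on arrays 1, 3 and 13, against 5.16 to 5.65 in CD24 high cells. That of 10 endothelial markers was 8.12 to 9.29 on arrays 9, 11, 13 and 15 and 6.63 and 6.51 on arrays 1 and 3, against 4.90 to 6.34 in CD24 high cells. The mean of 8 skeletal muscle markers was 7.76 and 8.85 on arrays 1 and 3 and 5.19 to 5.77 on the other 10. In sorted bulk samples, fewer cells of a type and less RNA per cell cannot be told apart. Array medians over all probesets lay between 5.64 and 5.82.

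The first comparison asked which collagen genes differ between the myoepithelial and the luminal fraction, separately in each genotype. In WT cells 16 of the 44 collagen genes were lower in CD24 high than in CD24 low cells and 1, Col8a1, was higher (limma, adjusted p under 0.05 over all genes). Over all 19938 genes 8.21% were called lower and 7.93% higher. In Wnt4-deleted cells 14 of 44 were lower and Col8a1 was again the only one higher, beside 8.22% and 8.23% of all genes. The 14 passed in both genotypes, whose means came from different arrays but whose tests shared the same estimate of the spread. Of all genes, 6.5% passed as lower in both. The median log2 change of the 44 genes was -0.29 in WT and -0.25 in Wnt4-deleted cells, against 0.02 and 0.01 over all genes. Of the 44 genes 27 passed in neither genotype, and the 2 that passed in WT cells alone were Col5a1 and Col15a1.

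**Figure D1:**
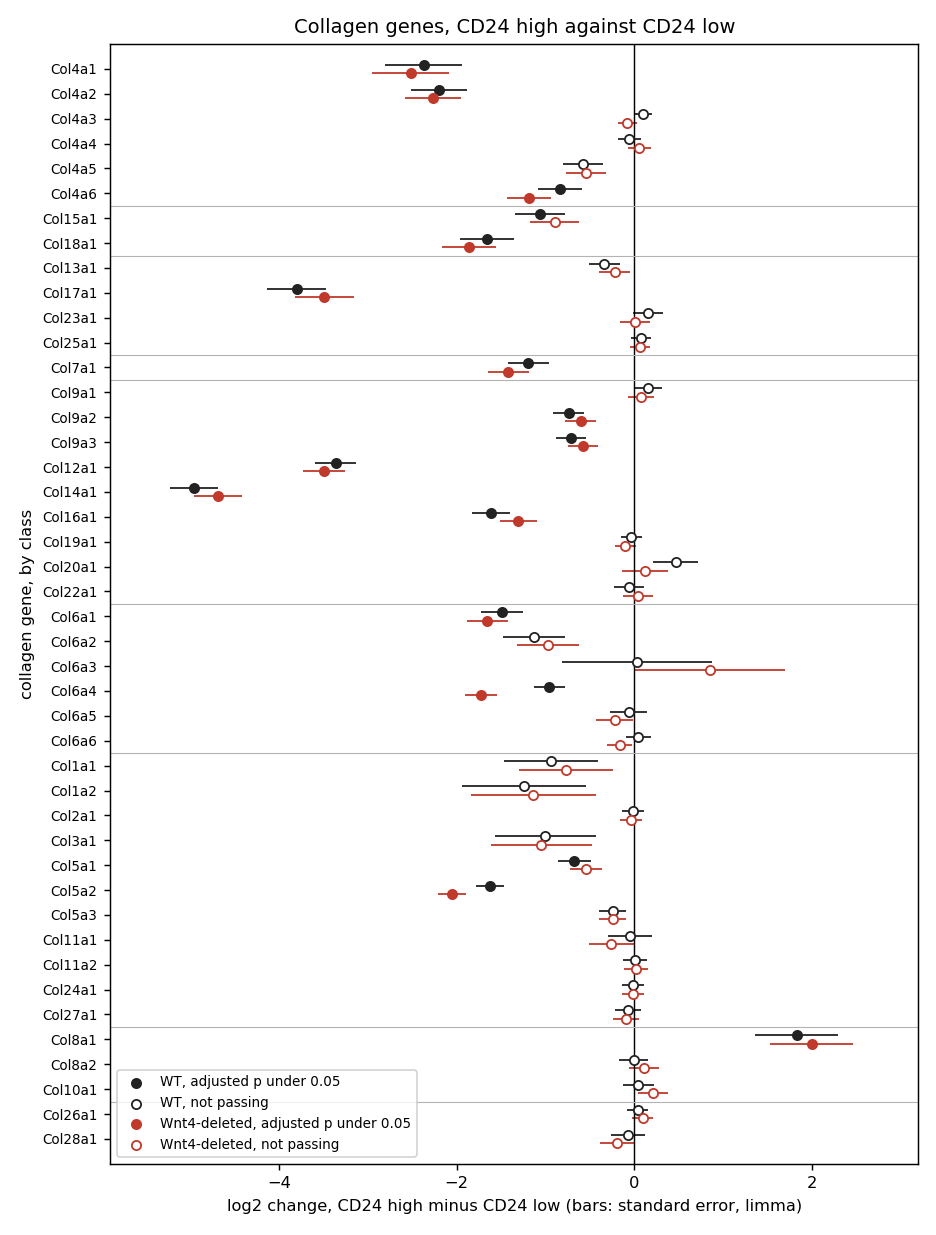
Log2 change from CD24 low to CD24 high cells for each collagen gene in WT (black) and Wnt4-deleted cells (red), with the standard error from limma as bars (n = 3 arrays per group); filled points passed an adjusted p of 0.05. Most of the 27 genes that passed in neither genotype lie near 0, and Col8a1 is the only filled point to the right of 0.

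Among type IV chains, 3 of 6 were lower in CD24 high cells in both genotypes, and the class median was -0.70 in WT and -0.87 in Wnt4-deleted cells. Below, log2 values follow the order of the title numbers within each group. Col4a1, a chain of the network found in most basement membranes, measured 9.07, 8.68 and 8.63 in WT and 9.41, 9.38 and 7.36 in Wnt4-deleted CD24 low cells, against 6.53, 6.32 and 6.41 in WT and 6.39, 6.21 and 6.002 in Wnt4-deleted CD24 high cells. Its partner chain Col4a2 measured 8.14, 8.06 and 8.04 in WT and 8.60, 8.47 and 7.06 in Wnt4-deleted CD24 low cells, against 5.95, 5.91 and 5.79 and 5.65, 5.99 and 5.67 in the CD24 high groups. No CD24 high array reached the lowest CD24 low array for either chain, and array 15 was lowest of the CD24 low arrays for both. The log2 change of Col4a1 was -2.37 ± 0.43 (SE) in WT (5.17-fold, limma adjusted p = 0.00306) and -2.52 ± 0.43 in Wnt4-deleted cells (5.72-fold, adjusted p = 0.00206). For Col4a2 it was -2.20 ± 0.32 (4.58-fold, limma adjusted p = 0.000668) and -2.27 ± 0.32 (4.82-fold, adjusted p = 0.000525). In the RefSeq promoter table (GRCm38.p6) the most upstream start sites of this pair lie 21 bases apart on chromosome 8, on opposite strands. By RefSeq gene limits Col4a1 ends at base 11312889 and Col4a2 starts at base 11312805, so the distance depends on the start sites used.

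Endothelial cells also make Col4a1 and Col4a2, and the endothelial markers moved with the fraction. Of the 10 markers 6 passed as lower in CD24 high cells in WT and 8 in Wnt4-deleted cells. Over all genes 8.21% and 8.22% were called lower. On arrays 1 and 3, where these markers were lowest among CD24 low arrays, Col4a1 was 9.07 and 9.41. Within that set of title numbers (1 to 4) its change was -2.53 in WT and -3.02 in Wnt4-deleted cells, and that of Col4a2 was -2.19 and -2.95. Arrays 1 and 3 still had endothelial means of 6.63 and 6.51, against 5.06 and 4.90 on CD24 high arrays 2 and 4, and they carried the skeletal muscle signal (7.76 and 8.85). The part of these cells in the type IV values was not tested.

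The other type IV chains changed less or did not pass. Col4a6, which pairs with Col4a5 in some basement membranes, measured 8.004, 8.22 and 8.09 in WT and 8.40, 8.15 and 7.35 in Wnt4-deleted CD24 low cells, against 7.06, 7.44 and 7.31 and 6.66, 6.52 and 7.17 in CD24 high cells. The groups did not overlap in either genotype, and the change was -0.84 ± 0.25 in WT (limma adjusted p = 0.0448) and -1.19 ± 0.25 in Wnt4-deleted cells (adjusted p = 0.00763). In WT cells Col4a6 was close to the threshold: leaving out array 1, 2, 4, 9, 10, 11, 12, 13 or 14 took its adjusted p above 0.05, up to 0.132 without array 9, and so did median centring (0.068) and the sets of title numbers as a fixed block (0.0613). The Wnt4-deleted call held without any single array, but ended with only the 6 arrays compared (adjusted p = 0.0577), without the set 1 to 4 (0.0797) and without the set 9 to 12 (0.185). Col4a5 measured 8.10, 7.81 and 7.55 in WT and 8.22, 7.84 and 7.35 in Wnt4-deleted CD24 low cells, against 7.07, 7.38 and 7.30 and 7.13, 7.10 and 7.54. It overlapped between the fractions in Wnt4-deleted cells, where array 15 lay below array 16, and its changes of -0.57 ± 0.22 and -0.55 ± 0.22 did not pass (limma adjusted p = 0.119 and 0.133). Without array 15 the Wnt4-deleted change was -0.77 (adjusted p = 0.0307). In the same promoter table the most upstream start sites of Col4a5 and Col4a6 lie 1343 bases apart on the X chromosome, also on opposite strands. Col4a3 and Col4a4, chains of the network best known from the kidney glomerulus, stayed between 5.60 and 5.93 and between 5.21 and 5.67 over all 12 arrays, with changes of 0.10 ± 0.10 and -0.05 ± 0.13 in WT cells and -0.08 ± 0.10 and 0.06 ± 0.13 in Wnt4-deleted cells (limma adjusted p = 0.634 to 0.868).

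Of the 2 multiplexins, basement membrane collagens that carry sugar chains, Col18a1 passed in both genotypes. Col18a1, the precursor of endostatin, measured 8.02, 7.90 and 7.67 in WT and 8.38, 7.78 and 6.86 in Wnt4-deleted CD24 low cells, against 6.36, 6.27 and 5.99 and 5.85, 5.998 and 5.59 in CD24 high cells. Every CD24 low array lay above every CD24 high array. The change was -1.66 ± 0.30 in WT (3.16-fold, limma adjusted p = 0.00306) and -1.86 ± 0.30 in Wnt4-deleted cells (3.63-fold, adjusted p = 0.00144). Col15a1 measured 6.84, 7.46 and 7.24 in WT and 6.51, 7.77 and 6.84 in Wnt4-deleted CD24 low cells, against 5.98 to 6.22 in WT and 5.89 to 6.30 in Wnt4-deleted CD24 high cells. It passed in WT cells (-1.07 ± 0.28, limma adjusted p = 0.024) and missed the threshold in Wnt4-deleted cells (-0.90 ± 0.28, adjusted p = 0.0513). In WT cells it no longer passed without array 2, 9, 10, 13 or 14 (adjusted p = 0.0538 to 0.0948), and in Wnt4-deleted cells it passed without array 3 (adjusted p = 0.0131) and with the sets of title numbers as a fixed block (0.0243) or a random block (0.041). Its highest values, on arrays 9 and 11, were on the arrays with the most fibroblast marker signal. The endothelial marker mean was 8.94 on array 13, where Col15a1 was 7.24, and 6.51 on array 3, where Col15a1 was 6.51. On array 15 that mean was 9.12 and Col15a1 was 6.84. The part of fibroblast or endothelial RNA in the Col15a1 and Col18a1 values was not tested.

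Col17a1, a transmembrane collagen of the hemidesmosome that ties basal cells to the basement membrane, measured 9.93, 9.80 and 9.72 in WT and 10.06, 9.74 and 8.47 in Wnt4-deleted CD24 low cells, against 6.35, 5.72 and 5.98 and 5.80, 6.15 and 5.84 in CD24 high cells. Array 15 was again the lowest of the CD24 low arrays, and the fractions stayed apart by more than 2 log2 units. The change was -3.80 ± 0.33 in WT (13.9-fold, limma adjusted p = 1.82e-05) and -3.49 ± 0.33 in Wnt4-deleted cells (11.3-fold, adjusted p = 3.3e-05), and it ranked 62 and 88 among the genes that fell most. The other 3 transmembrane collagens, Col13a1, Col23a1 and Col25a1, passed in neither genotype, with changes between -0.34 and 0.15.

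Col7a1, which forms the anchoring fibrils under stratified epithelia, measured 7.92, 7.82 and 8.02 in WT and 8.26, 8.46 and 7.33 in Wnt4-deleted CD24 low cells, against 6.81, 6.69 and 6.69 and 6.498, 6.65 and 6.65 in CD24 high cells. No arrays overlapped between the fractions. The change was -1.19 ± 0.23 in WT (2.29-fold, limma adjusted p = 0.00446) and -1.42 ± 0.23 in Wnt4-deleted cells (2.67-fold, adjusted p = 0.0015).

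**Figure D2:**
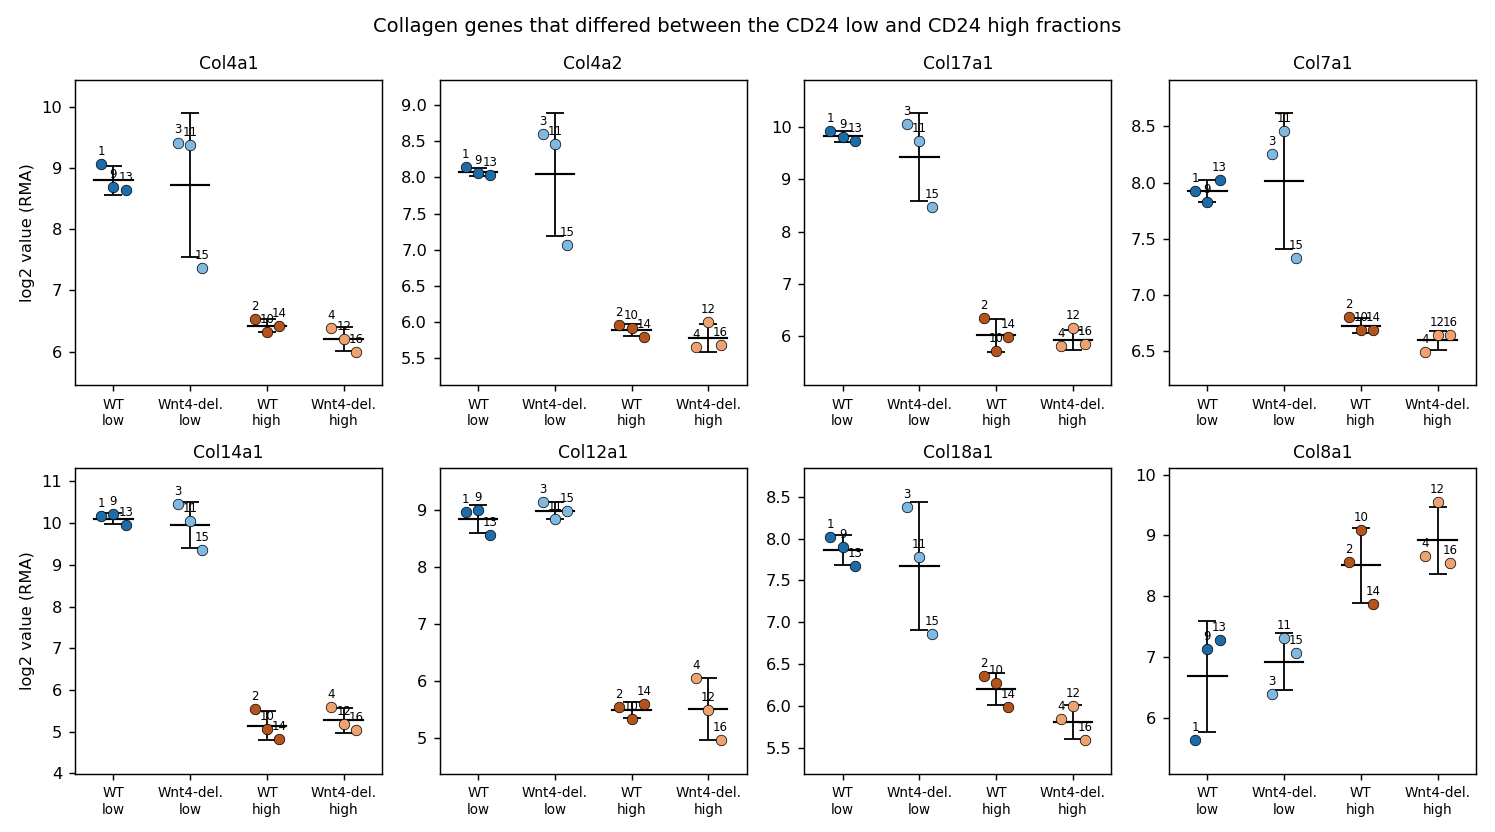
Log2 value of 8 collagen genes on every array, labelled with its title number, by group (low and high: CD24 fractions), with the group mean and SD (n = 3) as lines. For Col4a1, Col4a2, Col17a1, Col7a1, Col14a1, Col12a1 and Col18a1 the CD24 low arrays lie above the CD24 high arrays, with array 15 lowest of the CD24 low arrays for each except Col12a1; Col8a1 runs the other way.

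Among the 9 FACIT genes, 5 were lower in CD24 high cells in both genotypes, with a class median of -0.71 in WT and -0.58 in Wnt4-deleted cells. Col14a1 encodes a FACIT collagen that binds fibrils of type I. It measured 10.16, 10.21 and 9.96 in WT and 10.47, 10.04 and 9.37 in Wnt4-deleted CD24 low cells, against 5.54, 5.08 and 4.84 and 5.60, 5.18 and 5.03 in CD24 high cells. This was the largest change of any collagen gene, -4.96 ± 0.27 in WT (31.1-fold, limma adjusted p = 6.6e-07) and -4.69 ± 0.27 in Wnt4-deleted cells (25.7-fold, adjusted p = 8.85e-07), and it ranked 15 and 18 among the genes that fell most of 19938. Col12a1, the closest FACIT relative of Col14a1, measured 8.98, 9.003 and 8.57 in WT and 9.15, 8.85 and 8.99 in Wnt4-deleted CD24 low cells, against 5.54, 5.33 and 5.59 and 6.05, 5.49 and 4.96. Array 15 did not stand apart for Col12a1. Its change was -3.36 ± 0.24 in WT (10.3-fold, limma adjusted p = 3.58e-06) and -3.50 ± 0.24 in Wnt4-deleted cells (11.3-fold, adjusted p = 2.63e-06).

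Fibroblasts also make both genes. Array 9 was the highest of the WT CD24 low arrays for both, and array 3 was the highest of all CD24 low arrays. With arrays 9 and 11 left out the Col14a1 change was -4.91 in WT and -4.64 in Wnt4-deleted cells, and that of Col12a1 was -3.29 and -3.57. The part of fibroblast RNA in these values was not tested.

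Col16a1, a FACIT collagen of fibril surfaces and basement membrane zones, measured 8.11, 8.33 and 8.51 in WT and 8.07, 8.35 and 7.54 in Wnt4-deleted CD24 low cells, against 6.61, 6.62 and 6.87 and 6.47, 6.996 and 6.59 in CD24 high cells. All CD24 low arrays were above all CD24 high arrays, and the change was -1.62 ± 0.21 (3.06-fold, limma adjusted p = 0.000344) and -1.30 ± 0.21 (2.47-fold, adjusted p = 0.00143). Col9a2 and Col9a3, chains of the cartilage type IX collagen, were lower by less, -0.74 ± 0.17 and -0.71 ± 0.17 in WT and -0.60 ± 0.17 and -0.58 ± 0.17 in Wnt4-deleted cells (limma adjusted p = 0.0136 to 0.0387). Leaving out array 10 or 14 for Col9a2, and array 1 or 14 for Col9a3, ended the call in WT cells (adjusted p = 0.0522 to 0.0603). In Wnt4-deleted cells the call ended without any 1 of 10 arrays for Col9a2 (all but 2 and 15) and any 1 of 7 for Col9a3 (3, 4, 9, 10, 11, 12 and 16), with adjusted p-values up to 0.134. Col9a1, the remaining type IX chain, stayed between 5.16 and 5.78 and did not pass, nor did Col19a1, Col20a1 or Col22a1.

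Type VI chains, which form beaded filaments, did not all pass. Col6a1 and Col6a4 passed in both genotypes, Col6a2 and Col6a3 did not, and Col6a5 and Col6a6 varied by less than 1 log2 unit over all arrays. Col6a1 measured 7.77, 8.36 and 7.53 in WT and 7.72, 8.18 and 7.35 in Wnt4-deleted CD24 low cells, against 6.37, 6.28 and 6.55 and 6.23, 6.09 and 5.97 in CD24 high cells. It was highest on arrays 9 and 11, and the fractions did not overlap. The change was -1.49 ± 0.23 (2.80-fold, limma adjusted p = 0.00121) and -1.65 ± 0.23 (3.14-fold, adjusted p = 0.000576), and without arrays 9 and 11 it was -1.25 and -1.44. Col6a4 measured 6.06, 6.26 and 6.44 in WT and 7.16, 6.38 and 6.83 in Wnt4-deleted CD24 low cells, against 5.34, 5.25 and 5.29 and 5.06, 5.16 and 4.97. Unlike Col6a1 it was highest on arrays 3 and 15, and its change was -0.95 ± 0.18 (1.94-fold, limma adjusted p = 0.00344) in WT and -1.73 ± 0.18 (3.31-fold, adjusted p = 5.8e-05) in Wnt4-deleted cells.

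Col6a2 and Col6a3 combine with Col6a1 into the common type VI molecule. Col6a2 measured 7.34, 8.04 and 6.94 in WT and 6.94, 8.03 and 6.70 in Wnt4-deleted CD24 low cells, against 6.30, 6.401 and 6.23 and 5.89, 6.65 and 6.21. Its arrays did not overlap between the fractions, but the changes of -1.13 ± 0.35 and -0.97 ± 0.35 missed the threshold (limma adjusted p = 0.0507 and 0.0883), and in WT cells it passed without array 11, 13 or 15 (adjusted p = 0.0154 to 0.0412). With the sets of title numbers as a fixed block Col6a2 passed in both genotypes (limma adjusted p = 0.00588 in WT and 0.0125 in Wnt4-deleted cells), and as a random block in WT cells (0.0364). Col6a3 followed neither fraction nor genotype. It was 7.92 and 8.10 on CD24 low arrays 9 and 11 and 5.31 to 6.18 on the other CD24 low arrays, while in CD24 high cells it ranged from 5.62 on array 4 to 8.61 on array 16, with 7.33 on array 2 and 7.65 on array 12. The range of Col6a3 over all arrays, 3.31 log2 units, exceeded those of Col6a1 (2.39) and Col6a2 (2.14). On array 16, the highest for Col6a3, the fibroblast marker mean was 5.20, among the lower values of all arrays.

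Of the 11 fibrillar genes, 2 (18.2%) passed as lower in CD24 high cells in WT and 1 (9.09%) in Wnt4-deleted cells. Over all genes 8.21% and 8.22% were called lower. Col5a2, a chain of the type V collagen that starts fibrils, measured 7.05, 6.79 and 7.12 in WT and 7.196, 7.37 and 6.88 in Wnt4-deleted CD24 low cells, against 5.23, 5.41 and 5.45 and 5.11, 5.28 and 4.89 in CD24 high cells. The CD24 low arrays lay close together, with array 9 the lowest, and well above the CD24 high arrays. The change was -1.62 ± 0.16 in WT (3.08-fold, limma adjusted p = 4.09e-05) and -2.05 ± 0.16 in Wnt4-deleted cells (4.15-fold, adjusted p = 7.48e-06). Its partner Col5a1 was lower by -0.67 ± 0.18 in WT cells (limma adjusted p = 0.0264), a call that ended without array 1, 2, 9, 10, 13 or 14 (adjusted p = 0.0546 to 0.0907). In Wnt4-deleted cells its change of -0.54 ± 0.18 did not pass (adjusted p = 0.0675) and did so without array 15, at -0.76 (adjusted p = 0.00477). Col5a3, Col2a1, Col11a1, Col11a2, Col24a1 and Col27a1 passed in neither genotype.

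The interstitial collagens of types I and III were high on 2 of the 6 CD24 low arrays. Col1a1 measured 6.62, 8.49 and 6.90 in WT and 6.41, 8.36 and 6.56 in Wnt4-deleted CD24 low cells, against 6.44, 6.34 and 6.397 and 6.11, 6.57 and 6.34 in CD24 high cells. Col1a2 measured 6.54, 9.27 and 6.37 and 6.41, 8.41 and 6.402, against 6.36, 6.07 and 6.03 and 5.89, 6.03 and 5.89. Col3a1 measured 6.16, 7.88 and 6.11 and 5.81, 8.13 and 6.21, against 5.704, 5.72 and 5.72 and 5.51, 5.94 and 5.57. For all 3 genes the high arrays were 9 and 11, and the other 4 CD24 low arrays lay within 1 log2 unit of the CD24 high arrays. The log2 changes ran from -0.77 to -1.24 and passed for none of the 3 in either genotype (limma adjusted p = 0.27 to 0.4). Their 95% intervals were wide, from -2.78 to 0.30 for Col1a2 in WT cells. With arrays 9 and 11 left out the changes were -0.36 and -0.14 for Col1a1, -0.30 and -0.47 for Col1a2 and -0.42 and -0.34 for Col3a1, in WT and Wnt4-deleted cells respectively.

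Arrays 9 and 11 were also the arrays with the most fibroblast and pericyte marker signal. Lum, a fibril-binding proteoglycan of fibroblasts, was 9.1 and 8.1 there, 7.0 on array 15 and 3.3 to 4.4 on arrays 1, 3 and 13. Dpt, a fibroblast matrix protein, was 9.5 and 9.3 on arrays 9 and 11, 6.8 on array 15 and 4.1 to 5.2 on arrays 1, 3 and 13. Arrays 9 and 11 were above the other 4 CD24 low arrays for every fibroblast marker but Fbln1, Fbln2, Mfap5 and Cd34. Fbln2 was highest on array 13 (9.3), and Mfap5 was 9.1 on array 15 and 8.9 on array 11. Cd34 was 9.1 on array 13 and 8.9 on array 9, and Fbln1 was 7.6 on array 3 and 7.1 on array 11. Of the 14 fibroblast markers 4 (28.6%) passed as lower in CD24 high cells in WT and 5 (35.7%) in Wnt4-deleted cells. Of the 8 pericyte markers 1 (12.5%) and 2 (25.0%) did, where 8.21% and 8.22% of all genes were called lower. In each genotype 7 of the 8 pericyte changes were negative, and the highest was 1.30 in WT and 1.17 in Wnt4-deleted cells. The part of fibroblast and pericyte RNA in the type I and III values was not tested. Array 15, next in fibroblast marker signal, measured 6.56 for Col1a1, 6.402 for Col1a2 and 6.21 for Col3a1. Of the 44 collagen genes, 10 had arrays 9 and 11 above the other 4 CD24 low arrays, where 8.17% of all genes did.

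**Figure D3:**
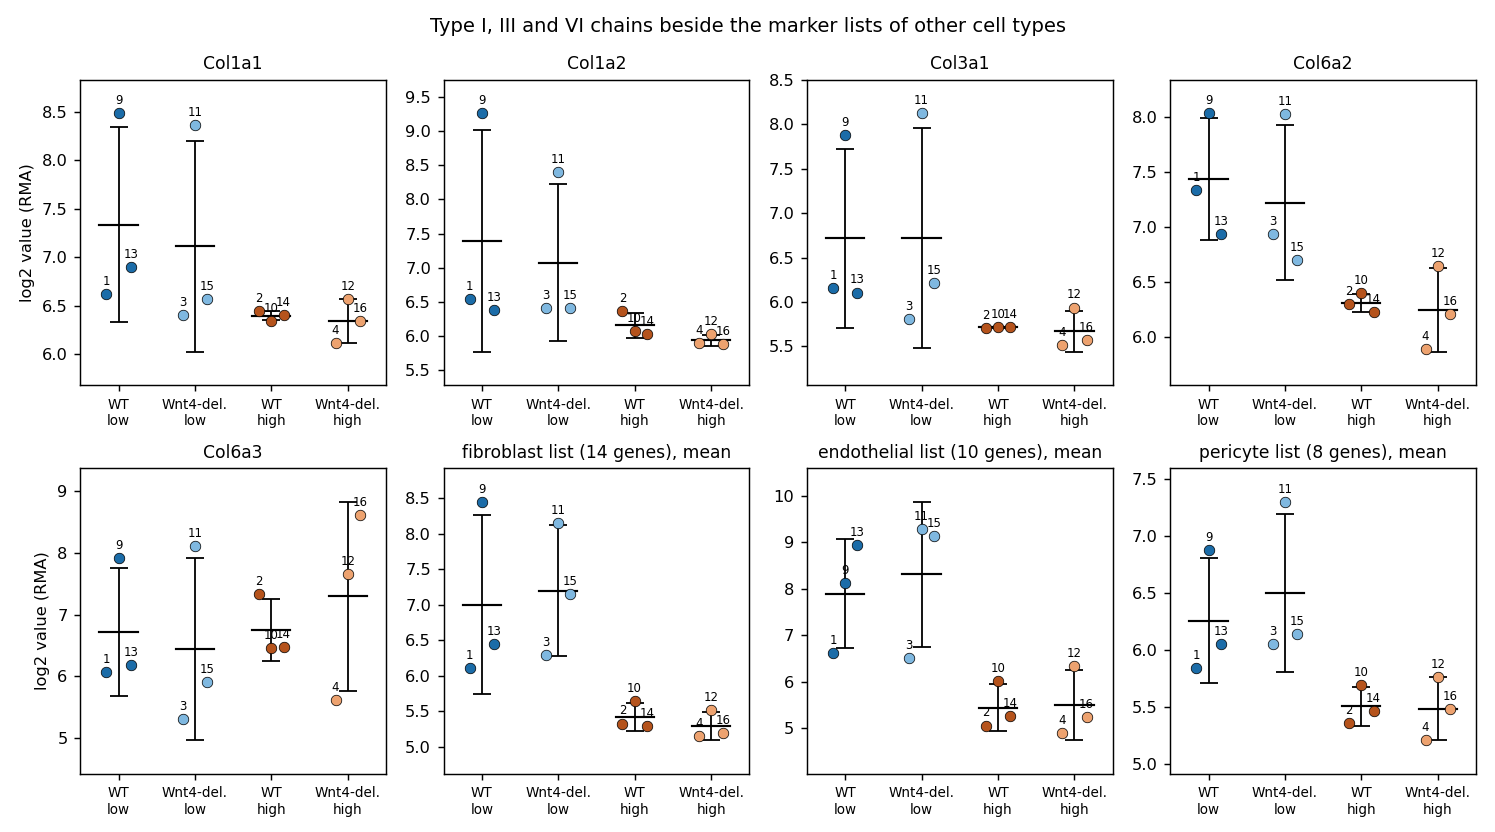
Log2 value of Col1a1, Col1a2, Col3a1, Col6a2 and Col6a3, and the mean log2 value of the fibroblast, endothelial and pericyte marker lists, on every array by group, with title numbers and the group mean and SD (n = 3). Arrays 9 and 11 are highest of the CD24 low arrays for the 5 genes and for the fibroblast and pericyte lists, and Col6a3 is also high on CD24 high arrays 12 and 16.

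Col8a1 was the only collagen gene that passed as higher in CD24 high cells. It encodes a short-chain collagen known from the Descemet membrane of the cornea and from vessel walls. Values were 8.56, 9.09 and 7.87 in WT and 8.66, 9.55 and 8.55 in Wnt4-deleted CD24 high cells, against 5.63, 7.13 and 7.27 and 6.395, 7.31 and 7.06 in CD24 low cells. The lowest CD24 high array was above the highest CD24 low array, and arrays 1 and 3 were the lowest of all. The change was 1.83 ± 0.47 in WT (3.55-fold, limma adjusted p = 0.0202) and 1.998 ± 0.47 in Wnt4-deleted cells (3.99-fold, adjusted p = 0.0127). Single arrays decided the call: it ended in WT cells without array 1 (1.30, adjusted p = 0.0609), array 2 (1.80, adjusted p = 0.054) or array 10 (1.54, adjusted p = 0.0846), and in Wnt4-deleted cells without array 12 (1.68, adjusted p = 0.0531). Col8a2, its partner chain, and Col10a1 stayed between 5.04 and 5.73 and between 5.11 and 5.75.

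Some collagen genes varied little between arrays, though a smaller share of them than of all genes. Of the 44, 20 varied by less than 1 log2 unit over the 12 arrays, where 58.9% of all genes did, and none of the 20 passed in either genotype. Their values lay between 4.14 and 6.86. They include 6 of the 11 fibrillar genes (Col2a1, Col5a3, Col11a1, Col11a2, Col24a1 and Col27a1), among them the main collagen of cartilage, Col2a1. By the 40th percentile of mean level over all genes, 37 of the 44 were above it and 7 below: Col19a1, Col4a4, Col6a5, Col24a1, Col28a1, Col10a1 and Col8a2.

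Promoter sequence was available in the RefSeq table (GRCm38.p6) for 35 of the 44 genes. The 250 bases before the start site are shown for Col17a1 and Col7a1, lower in CD24 high cells, and for Col8a1, which ran the other way. They are chr19:47692043-47692292 (minus strand), chr9:108953336-108953585 (plus strand) and chr16:57754738-57754987 (minus strand), all upstream of the gene, 5′ to 3′. Capitals mark matches, on either strand, to 4 motifs searched: the TATA box as TATAAA, the CCAAT box as CCAAT, the GC box of Sp factors as GGGCGG and the AP-1 motif as TGANTCA.
Col17a1: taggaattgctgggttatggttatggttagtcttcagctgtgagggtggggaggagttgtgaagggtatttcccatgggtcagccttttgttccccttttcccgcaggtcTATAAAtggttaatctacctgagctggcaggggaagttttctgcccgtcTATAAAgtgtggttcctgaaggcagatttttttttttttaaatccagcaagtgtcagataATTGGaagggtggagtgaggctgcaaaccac
Col7a1: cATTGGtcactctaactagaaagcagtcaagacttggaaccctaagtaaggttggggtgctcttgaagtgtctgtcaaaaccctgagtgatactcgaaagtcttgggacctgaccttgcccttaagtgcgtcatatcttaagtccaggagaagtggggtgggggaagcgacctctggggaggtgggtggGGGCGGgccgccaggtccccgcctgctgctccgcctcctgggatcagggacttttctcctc
Col8a1: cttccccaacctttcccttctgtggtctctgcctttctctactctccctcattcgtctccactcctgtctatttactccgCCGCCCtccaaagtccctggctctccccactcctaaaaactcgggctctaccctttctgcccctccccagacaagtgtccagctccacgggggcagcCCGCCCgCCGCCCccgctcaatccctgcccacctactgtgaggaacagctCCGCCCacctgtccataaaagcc
The Col17a1 stretch held TATAAA at 2 places and CCAAT on the reverse strand, the Col7a1 stretch held 1 GGGCGG and 1 reverse CCAAT, and the Col8a1 stretch held 4 GGGCGG on the reverse strand. Over the 35 genes, 21 held GGGCGG, 12 CCAAT, 5 TATAAA and 1 TGANTCA (Col6a1) in their most upstream window. Over all 32851 promoter windows, 32.7% held GGGCGG, 33.8% CCAAT, 12.4% TATAAA and 6.75% TGANTCA. These are matches of letters and not measured binding sites.

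Collagen chains need hydroxylation and chaperones before secretion, and genes for these steps were compared next. Of 17 genes for collagen biosynthesis and folding, 8 (47.1%) were lower in CD24 high cells in both genotypes and none was higher, where 6.5% of all genes were lower in both, with a median change of -0.70 in WT and -0.28 in Wnt4-deleted cells. P3h2, a prolyl 3-hydroxylase that acts on type IV collagen, had means of 8.78 and 9.09 in the CD24 low groups (WT and Wnt4-deleted) and 6.25 and 6.11 in the CD24 high groups. Its change was -2.53 ± 0.26 and -2.99 ± 0.26 (limma adjusted p = 6.13e-05 and 1.77e-05). Plod2, a lysyl hydroxylase that sets the type of cross-link, changed by -2.43 ± 0.37 and -2.48 ± 0.37, and Crtap, a partner of prolyl 3-hydroxylase 1, by -2.15 ± 0.26 and -2.05 ± 0.26 (adjusted p at most 0.000871). The other 5 that passed in both were P3h1, P3h3, P4ha1, Colgalt2 and Serpinh1, the collagen chaperone Hsp47. P4hb and Ppib, which also serve proteins other than collagen, did not pass, and Plod3 passed in WT cells alone.

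Of 12 genes for collagen processing and cross-linking, 4 (33.3%) were lower in CD24 high cells in both genotypes, beside the 6.5% of all genes. Sparc, a collagen-binding matrix protein, had means of 12.23 and 12.25 in the CD24 low groups and 7.76 and 7.79 in the CD24 high groups, a change of -4.47 ± 0.41 and -4.46 ± 0.41 (limma adjusted p = 2.74e-05 and 2.68e-05). Loxl3, a lysyl oxidase, changed by -2.08 ± 0.24 and -2.02 ± 0.24 (adjusted p = 0.000158 and 0.000196). Pcolce, which speeds removal of the procollagen C-propeptide, changed by -1.95 ± 0.45 and -1.56 ± 0.45 (adjusted p = 0.0118 and 0.0353). In Wnt4-deleted cells the Pcolce call ended without array 4, 11, 15 or 16 (adjusted p = 0.0677 to 0.129). With arrays 9 and 11 both left out its change was -1.39 in WT and -1.20 in Wnt4-deleted cells (limma adjusted p = 0.00638 and 0.0131). Without the set 13 to 16 the Pcolce call ended in both genotypes (limma adjusted p = 0.106 in WT and 0.261 in Wnt4-deleted cells). Without the set 1 to 4 it ended in Wnt4-deleted cells (limma adjusted p = 0.0666). Bmp1, the C-propeptide protease, was the remaining gene. Lox passed in WT cells alone and Adamts3, a procollagen N-propeptidase, was higher in CD24 high cells in WT alone. The mean of the 12 genes was 7.29 and 7.22 on arrays 9 and 11 and 6.51 to 6.74 on the other CD24 low arrays. The part of fibroblast RNA in these values was not tested.

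Of 9 measured collagen receptors and uptake genes, only Itga1 passed in both genotypes, a share of 11.1% where 12.4% of all genes passed in both in either direction. This integrin subunit, which prefers type IV collagen, had means of 7.87 and 8.41 in the CD24 low groups and 4.10 and 4.24 in the CD24 high groups, a change of -3.77 ± 0.22 and -4.17 ± 0.22 (limma adjusted p = 1.05e-06 and 5.03e-07). Itgb1, its beta subunit, was lower and Itga2 was higher in CD24 high cells in WT alone. Ddr1, Ddr2, Itga10, Itga11, Lair1 and Mrc2 passed in neither genotype.

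The second comparison asked whether loss of Wnt4 changed collagen expression within a fraction. No collagen gene passed in CD24 low cells, CD24 high cells or in the difference between the effects in the fractions (limma, smallest adjusted p = 1), where 0.00502%, 0.00502% and 0.0% of all genes passed. At an unadjusted p under 0.05 there was 1 collagen gene in CD24 low cells (3.06% of all genes), 0 in CD24 high cells (1.99%) and 1 in the difference of effects (1.37%), Col6a4 both times. Col6a4 was 0.54 ± 0.18 higher in Wnt4-deleted than in WT CD24 low cells (unadjusted p = 0.0112, limma adjusted p = 1), and arrays overlapped, since array 11 (6.38) lay below array 13 (6.44). In CD24 high cells it was -0.23 ± 0.18, and the difference of the effects was 0.77 ± 0.25 (unadjusted p = 0.0106, adjusted p = 1).

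Over all 44 genes the changes ran from -0.40 to 0.54 in CD24 low cells, with a median of -0.12, and from -0.49 to 0.54 in CD24 high cells, with a median of -0.12, against -0.02 and -0.03 over all genes. In CD24 low cells the groups overlapped for every collagen gene, where 6.77% of all genes did not overlap. In CD24 high cells 8 of 44 did not overlap, where 7.0% of all genes did not: Col1a2, Col28a1, Col2a1, Col4a3, Col5a1, Col6a1, Col6a4 and Col7a1, all lower in the Wnt4-deleted arrays, by 0.12 to 0.30 on the log2 scale. The 95% interval of the genotype change was -1.03 to 0.88 for Col4a1 and -1.13 to 0.34 for Col17a1 in CD24 low cells, and -1.17 to 0.73 and -0.82 to 0.64 in CD24 high cells. For Col14a1 it was -0.74 to 0.44 and -0.47 to 0.71, and for Col12a1 -0.37 to 0.66 and -0.51 to 0.53. With 3 arrays a group, each of these intervals included 0, and true changes inside them were not excluded.

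**Figure D4:**
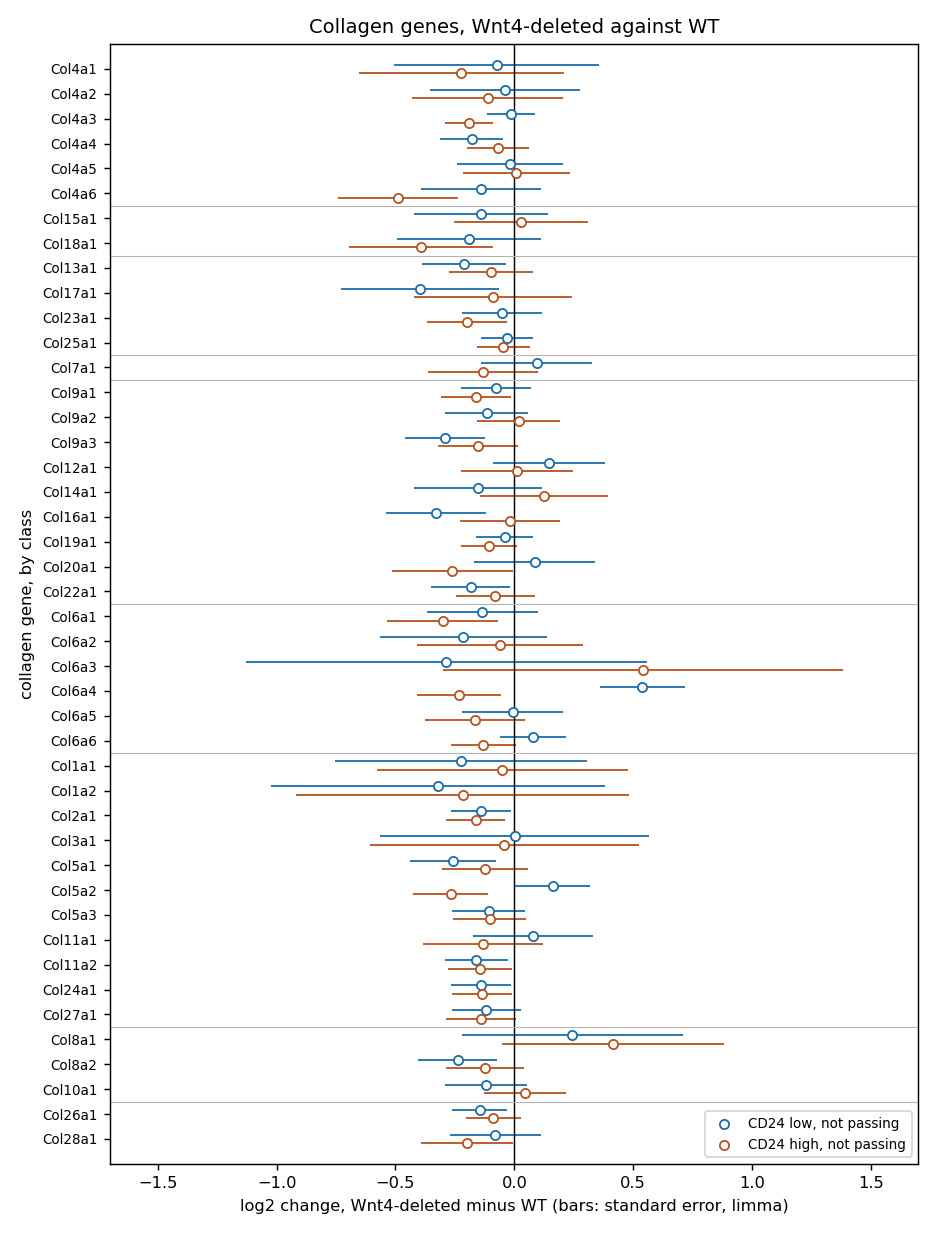
Log2 change from WT to Wnt4-deleted cells for each collagen gene in CD24 low (blue) and CD24 high cells (orange), with the standard error from limma as bars (n = 3 arrays per group). All points are open, since none passed an adjusted p of 0.05, and they run from -0.49 to 0.54.

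Within the Wnt4-deleted CD24 low group, array 15 read low for many collagen genes. It was the lowest of the 6 CD24 low arrays for 11 of the 14 genes that were lower in CD24 high cells in both genotypes, where 33.3% of all genes that were lower in both had their lowest CD24 low value there, and for 24 of all 44, where 24.0% of all genes did. Col17a1 was 8.47 on array 15 and 9.72 to 10.06 on the other 5, Col4a1 7.36 and 8.63 to 9.41, and Col18a1 6.86 and 7.67 to 8.38. The exceptions among the 14 were Col12a1, Col5a2 and Col6a4. The mean of the 10 myoepithelial markers was 10.86 on array 15 and 10.99 to 11.23 on the other 5, and that of the luminal markers was 7.89 and 7.87 to 8.37. What the marker levels contribute to these values was not tested. Without array 15 the change between fractions in Wnt4-deleted cells was -3.97 for Col17a1, -3.19 for Col4a1 and -2.27 for Col18a1.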

How the data were processed

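Gene expression was measured on 12 whole-transcript mouse microarrays, 4 groups of 3. The deposited values are log2 intensities, which the authors made by RMA (background correction, quantile normalization and probe summary) in Affymetrix Expression Console 1.1.2800. Of 35556 probesets 21789 carried 1 gene symbol, 1621 several and 12146 none, and only the first kind was used. For the 999 genes with more than 1 probeset, the one with the highest mean was kept, which left 19938 genes. RMA compresses differences near background, so that folds of dim genes are understated. An array has no sequencing depth, and precision is limited by the number of arrays.

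limma 3.58.1 (R 4.3.3) was fitted to all 12 arrays with 1 mean per group (8 residual degrees of freedom, 11.05 after moderation) and 5 contrasts: CD24 high against low in each genotype, Wnt4-deleted against WT in each fraction, and the difference of the Wnt4 effects. P-values were adjusted by Benjamini-Hochberg over all genes, with a threshold of 0.05, and intervals are 95% intervals of the fit. The fit was tested on simulated data. Fraction and genotype comparisons share arrays.

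The collagen genes, gene lists and marker lists were chosen with earlier results of these data known. Described in full were the chains passing in both genotypes (at most 12, by size of change), all chains of types I, III and IV, Col17a1 and Col18a1, and any chain passing a genotype comparison. From each list of collagen-handling genes, up to 3 per direction that passed in both genotypes were described by the size of their change. Other genes, among them Col15a1, Col5a1, Col6a2 and Col6a3, were named after their values were seen. Fkbp10, Adamts2, Loxl2 and Gp6 were on those lists but not among the measured genes. Alternatives covered the probeset rule, a filter at the 40th percentile, a second normalization, median centring, the prior, array weights, the arrays fitted, the sets of title numbers as a block, each array and set left out and other thresholds. The alternatives without arrays 9 and 11, 1 and 3, or 9, 11 and 15 were chosen after seeing the data. Promoter sequences are from RefSeq (GRCm38.p6). The genome build behind the array annotation is not given in the sources used here.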

Additional observations from a re-analysis of the deposited data

How the results depend on the processing

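The count of collagen genes lower in CD24 high cells was 8 to 18 in WT (16 reported) and 8 to 16 in Wnt4-deleted cells (14 reported) over 29 alternatives. Leaving out single arrays or whole sets of title numbers gave 8 to 17 and 8 to 16. The lowest counts came without the set 9 to 12 (8 in both genotypes), and without the set 13 to 16 the WT count was 10; these fits had fewer arrays. The count of genes higher in CD24 high cells, 1 in each genotype, ran from 0 to 1 when arrays or sets were left out, was 0 at an adjusted p of 0.01 in both genotypes, and was 0 in Wnt4-deleted cells without arrays 9, 11 and 15, which leaves 1 array of Wnt4-deleted CD24 low cells, assumed to vary like the other groups. Genotype counts were 0 throughout. Over 27 alternatives, 7 genes passed in both genotypes each time: Col12a1, Col14a1, Col16a1, Col17a1, Col4a2, Col5a2 and Col6a1. Without the set 9 to 12 the limma adjusted p of Col4a1 was 0.064 and 0.0825, of Col18a1 0.0846 and 0.0568 and of Col7a1 0.0547 and 0.0543 (WT and Wnt4-deleted). Among genes that passed nowhere, the sign turned for Col4a4 in WT cells after a second quantile normalization (0.0083) and median centring (0.0036), with -0.1633 to 0.0665 when arrays or sets were left out. It turned for Col4a3 in Wnt4-deleted cells after the second quantile normalization (0.0186), and for Col4a4 in Wnt4-deleted cells without arrays 1 and 3 (-0.0031), with -0.0031 to 0.1395 over left-out arrays. The cause of these changes was not tested. The groups share no replicate numbers in the labels, so the sets of title numbers, each with 1 array of every group, served as a block only as alternatives. As a fixed block they gave 16 genes lower in WT cells, losing Col4a6 and gaining Col6a2, and 16 in Wnt4-deleted cells, gaining Col6a2 and Col15a1. As a random block (correlation 0.0501) they gave 17, gaining Col6a2, and 15, gaining Col15a1.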
